A study of Mus musculus with 12 samples.

Results

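Collagen and laminin genes were followed in retinas of *Otx2* conditional knockout (CKO) mice and their controls. A gene was a member if a probe set of the array was annotated with 1 symbol only, and that symbol began with Col, a number, the letter a and a number, or was *Lama*, *Lamb* or *Lamc* with a number up to 5. This gave 101 probe sets of 52 genes, 42 collagens and 10 laminins, among 18194 genes with a probe set of 1 symbol. Each gene was represented by its brightest probe set over the 12 arrays. The 4 groups were P12 *Otx2* CKO, P12 control, P1 *Otx2* CKO and P1 control retina (P, postnatal day), with 3 Affymetrix arrays each. All mice carried *Otx2* flox/flox. The CKO groups also carried Crx-Cre, which drives recombination in developing photoreceptors, and the controls were Crx-Cre-. Which cells kept *Otx2* cannot be read from whole retina. The study also reports lower expression of bipolar genes in the *Otx2* CKO retina. The titles number the experiments within an age, and no source says whether 1 array held 1 animal, so the p values below measure the spread between these arrays. For some samples the longer description gives a genotype that differs from the title, and the titles were followed.

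Collagens are proteins of 3 chains wound into a triple helix. Type IV collagen forms the sheet of a basement membrane, fibrillar collagens form fibres, FACIT collagens sit on the surface of those fibres, and transmembrane collagens span the cell membrane. Laminins are trimers of 1 alpha, 1 beta and 1 gamma chain and form the other network of basement membranes. In the eye, basement membranes line the inner surface of the retina, the pigment epithelium and the vessels, and the vitreous is a gel rich in type II and type IX collagen.

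The signal of *Otx2* itself was 245, 167 and 108 in the P12 *Otx2* CKO arrays, against 1058, 1048 and 803 in the P12 control arrays, and 144, 108 and 154 in the P1 *Otx2* CKO arrays, against 376, 358 and 283 in the P1 control arrays, so no array went against its title. All 11 measured markers of retina averaged at least 50 in both P12 groups. The arrays were deposited at different overall brightness. The mean signal after trimming 2% at each end was 108 to 172 in P12 *Otx2* CKO, 96.4 to 111 in P12 control, 21.8 to 27.9 in P1 *Otx2* CKO and 28.5 to 30.1 in P1 control arrays. The array of 172 was replicate 1 of P12 *Otx2* CKO. Members are therefore given as deposited and, beside that, after scaling each array to a common trimmed mean within its age. Across all probe sets tested at P12 the median log2 change was 0.39 as deposited and 0.10 after that scaling.

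Few members were bright. A mean signal of 50 was taken as the limit here, after the minimum signal that the study set beside its log ratios. Of the 52 members, 26 averaged at least 50 in P12 *Otx2* CKO retina, 18 in P12 control, 4 in P1 *Otx2* CKO and 4 in P1 control. The same 4 genes, *Col2a1*, *Col4a1*, *Col6a1* and *Col9a1*, reached the limit in both P1 groups. A further 22 members, 16 collagens and 6 laminins, averaged under 50 in every group. Their group means ran up to 47.1 in P12 *Otx2* CKO, 48.9 in P12 control, 17.6 in P1 *Otx2* CKO and 21.0 in P1 control. *Col1a1*, the main chain of type I collagen, was among these, with group means of 12.0 in P12 *Otx2* CKO and 6.5 in P12 control. So were *Col4a3* and *Col4a4*, *Lama3*, *Lamb3* and *Lamc3*. These counts are of signals as deposited, where the P1 arrays were the dimmer ones. With all arrays scaled to 1 trimmed mean, 12 members averaged at least 50 in P12 *Otx2* CKO retina. There were then 11 in P12 control, 11 in P1 *Otx2* CKO and 11 in P1 control.

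At P12 the collagen and laminin genes did not move together. With signals as deposited, chains of the vitreous collagens (*Col2a1*, *Col9a1*, *Col9a3*) and the laminin chain *Lama1* were called higher in *Otx2* CKO retina. So were the type IV chains *Col4a5* and *Col4a6*, the fibril-associated *Col12a1*, and *Col23a1*, *Col18a1*, *Col8a1* and *Col5a2*. *Col17a1* and *Col5a3* were called lower. Of the 3 scalings described below, *Col9a1*, *Col8a1* and *Col5a2* were called higher under 0, *Col4a6* and *Col9a3* under 1 and *Col18a1* under 2. The classical basement membrane chains *Col4a1*, *Col4a2*, *Lamb1* and *Lamc1* were not called in either direction.

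Of the 30 members tested at P12 (mean of at least 50 in at least 1 P12 group), 11 were called higher and 2 lower at an adjusted p under 0.05 in limma. Over all 21390 probe sets tested, 14.1% were called higher and 4.54% lower. The median log2 change was 0.49 over the 30 members and 0.39 over all probe sets tested. Of these 30, 12 passed the limit only in *Otx2* CKO and 4 only in control retina, a route that favours a difference, and 5 of the higher calls and both lower calls came this way. Of the 14 members at 50 or more in both P12 groups, 6 were higher and 0 lower. The share of all probe sets under that stricter limit was not counted, so these counts have no background beside them. With a limit of 50 on the mean over all 12 arrays, 8 of 14 members were called higher and 0 lower (9 and 0 at an unadjusted p under 0.05 in limma), against 14.6% and 4.3% of all probe sets. That limit uses no group names, but it is not free of the groups. Among those called, *Col12a1* and *Lama1* passed it through P12 *Otx2* CKO and averaged under 50 in every other group. With trimmed mean scaling within an age, 8 members were called higher and 3 lower, against 8.4% and 8.0% of all probe sets. Quantile normalization within an age gave 7 and 3 members, against 8.46% and 8.28%, and quantile normalization of the 12 arrays 5 and 2, against 6.78% and 7.08%. *Col12a1*, *Col2a1*, *Col23a1*, *Col4a5*, *Lama1*, *Col17a1* and *Col5a3* were called under all 3 scalings. Same-numbered experiments deviated together, and with the experiment as a replicate block 14 members were higher and 3 lower, against 36.3% and 7.26%. The block together with trimmed mean scaling gave 12 and 8 members, against 24.1% and 16.1%. Without replicate 1 of P12 *Otx2* CKO, 9 of 24 members were higher and 4 lower, against 8.99% and 6.32%. With the P12 arrays fitted alone, *Col12a1* was the 1 member still called higher and 0 were lower (9 and 2 at an unadjusted p under 0.05), while 377 and 438 of the 21390 probe sets were called. The calls below other than that of *Col12a1* thus rest on the spread estimated over both ages. In whole retina, fewer cells of a type and less RNA per cell cannot be told apart.

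The rule of the study was a log2 ratio of at least 1 or at most -1 with a signal of at least 50. Here it was applied to group means, with the limit on the higher mean. This version took 10 members as higher and 2 as lower, against 8.31% and 2.17% of all probe sets. It took fewer probe sets in each direction than the study reports. Without any test, 16 of the 52 members (30.8%) had all 3 P12 *Otx2* CKO arrays above all 3 control arrays and 3 (5.77%) had them below. Over all 45037 probe sets the shares were 13.4% and 4.26%.

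**Figure D1:**
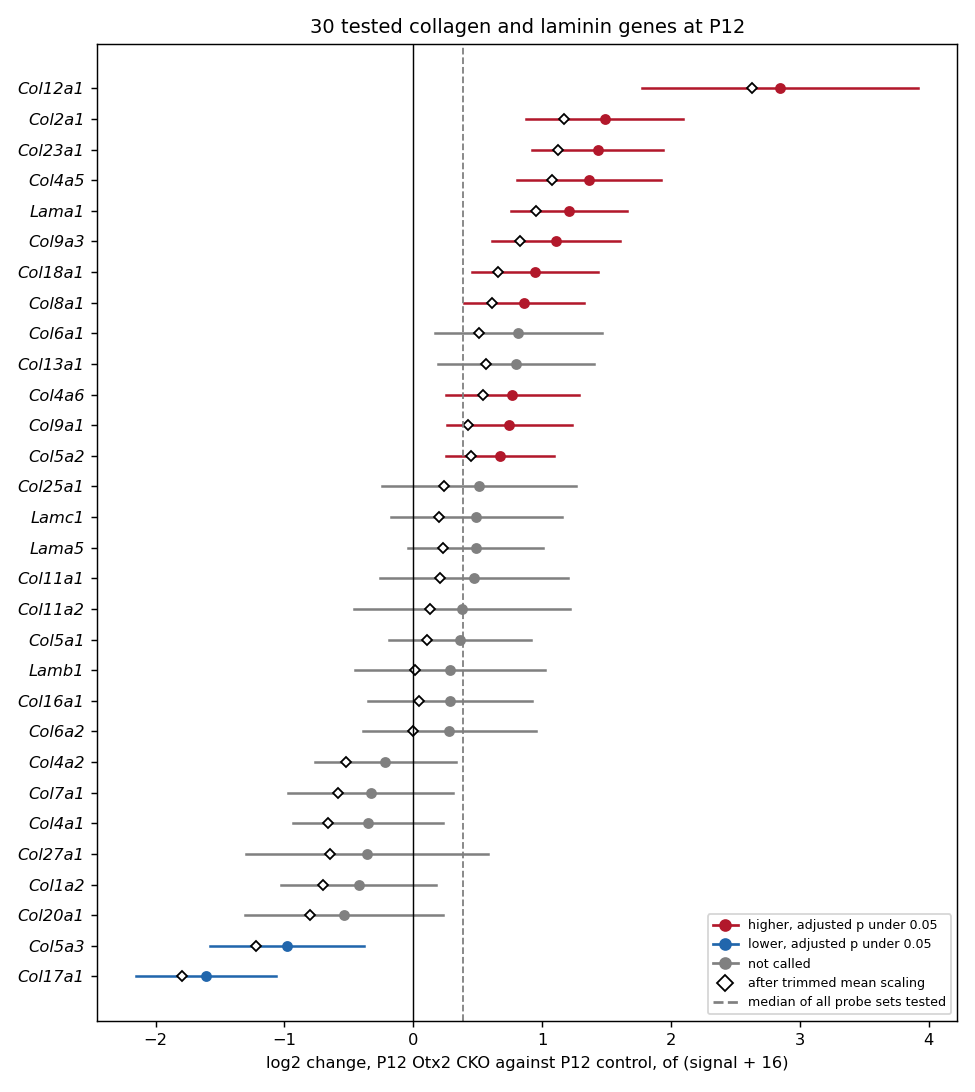
Log2 change of (signal + 16) in P12 *Otx2* CKO against P12 control retina for the 30 tested members, with its 95% interval as a line. Filled points are signals as deposited, open diamonds the change after trimmed mean scaling within an age, and the dashed line is the median of all probe sets tested (0.39). The diamonds lie left of the points for every member, and the change of *Col12a1* (2.85) and of *Col17a1* (−1.61) bound the range.

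Of the 6 type IV genes, *Col4a5* and *Col4a6* were called higher, *Col4a1* and *Col4a2* were not called, and *Col4a3* and *Col4a4* were under the limit. The genes lie in head-to-head pairs, *Col4a1* with *Col4a2*, *Col4a3* with *Col4a4*, and *Col4a5* with *Col4a6* on the X chromosome. *Col4a1* and *Col4a2* encode the chains found in nearly all basement membranes, and *Col4a5* and *Col4a6* chains of a more restricted network. *Col4a5* had a signal of 355, 251 and 341 in the P12 *Otx2* CKO arrays, against 88.8, 136 and 113 in the P12 control arrays. The change was 1.37 on the log2 scale (SE 0.26, adjusted p = 0.00331 from limma) and 1.07 after trimmed mean scaling. *Col4a6* had 81.6, 43.2 and 43.2 in the *Otx2* CKO arrays, against 26.7, 27.7 and 21.0 in the control arrays. Its change was 0.77 (SE 0.24, adjusted p = 0.0407) and 0.54 after scaling, and the call was lost in both quantile normalizations. It also went without replicate 1 or 3 of P12 control or any 1 of the 6 P1 arrays (adjusted p of at most 0.125), and without replicate 1 of P12 *Otx2* CKO the gene fell under the limit. Both genes thus had every *Otx2* CKO array above every control array.

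*Col4a1* stood at 552, 446 and 422 in the P12 *Otx2* CKO arrays, against 441, 827 and 605 in the P12 control arrays. *Col4a2* stood at 322, 192 and 189 in the *Otx2* CKO arrays, against 269.8, 319 and 219 in the control arrays. The arrays overlapped for both genes, and the changes as deposited were −0.35 (95% interval −0.94 to 0.23) and −0.22 (−0.76 to 0.33). After trimmed mean scaling they were −0.66 (adjusted p = 0.0777) and −0.52 (adjusted p = 0.0688), and with the replicate block added both were called lower (adjusted p = 0.00869 and 0.0239). *Col4a3* averaged 22.3 in P12 *Otx2* CKO and 13.6 in P12 control arrays, and *Col4a4* 14.6 in P12 *Otx2* CKO arrays, all under the limit.

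The sequence upstream of a start site is shown for the *Col4a5* and *Col4a6* pair, whose start sites lie 1343 bases apart and whose members were both higher, and for *Col17a1* and *Col5a3*, the 2 members called lower. It is the RefSeq sequence of build GRCm38.p6, 5′ to 3′ on the strand of the gene, within 250 bases before the start site and ending before the outermost annotated start of the gene. Capitals mark matches on either strand to TAATCC (the core bound by Otx2 and Crx), GGGCGG (the GC box), CCAAT or TATAAA, and no match overlapped another. *Col4a5* is at chrX:141475169-141475369 on the plus strand, *Col4a6* at chrX:141474096-141474326 on the minus strand, *Col17a1* at chr19:47692043-47692292 on the minus strand and *Col5a3* at chr9:20815118-20815317 on the minus strand.
Col4a5: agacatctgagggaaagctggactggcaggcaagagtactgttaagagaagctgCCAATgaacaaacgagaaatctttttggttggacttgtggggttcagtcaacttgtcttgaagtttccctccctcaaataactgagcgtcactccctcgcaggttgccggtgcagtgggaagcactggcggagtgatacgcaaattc
Col4a6: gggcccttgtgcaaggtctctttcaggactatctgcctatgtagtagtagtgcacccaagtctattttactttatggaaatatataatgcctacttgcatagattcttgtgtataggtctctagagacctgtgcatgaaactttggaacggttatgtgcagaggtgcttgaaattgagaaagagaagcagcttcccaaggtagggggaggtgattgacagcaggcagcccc
Col17a1: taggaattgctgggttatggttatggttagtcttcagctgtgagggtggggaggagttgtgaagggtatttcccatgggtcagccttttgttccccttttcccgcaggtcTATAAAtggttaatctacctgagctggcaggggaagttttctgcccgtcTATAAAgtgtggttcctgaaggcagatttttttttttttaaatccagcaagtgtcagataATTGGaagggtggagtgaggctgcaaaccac
Col5a3: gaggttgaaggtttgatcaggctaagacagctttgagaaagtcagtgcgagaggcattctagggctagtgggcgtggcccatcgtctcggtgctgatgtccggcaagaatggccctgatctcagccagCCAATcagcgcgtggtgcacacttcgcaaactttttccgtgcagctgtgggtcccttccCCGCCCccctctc

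None of the 4 stretches held TAATCC or its reverse complement GGATTA. Over the full 250 bases it was found in 6.25% of all 32851 RefSeq windows, and among the 38 members with a window it was found only before *Lamb2*. The study searched for the shorter TAATC, which is not marked or counted here and does stand in the stretch of *Col17a1*. A pair of TATAAA matches stood before *Col17a1*, and 12.4% of all windows held at least 1. The 38 members had 42 windows. GGGCGG was in 54.8% of these and in 32.7% of all windows, and CCAAT in 33.3% of these and in 33.8% of all windows. *Col4a5* and *Col4a6* held GGGCGG in the full window, though not within the stretch printed above. These matches describe letters and not bound sites.

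Of the 10 laminins 4 were tested at P12, and *Lama1* was called higher. *Lama1*, the alpha chain of laminin-111, had a signal of 137, 83.6 and 106 in the P12 *Otx2* CKO arrays, against 30.9, 43.3 and 38.1 in the P12 control arrays. No array of the groups overlapped, and the change was 1.21 (SE 0.21, adjusted p = 0.00184 from limma), or 0.96 after scaling. Its partner chains were not called. *Lamb1* had 129, 229 and 135 in the *Otx2* CKO arrays, against 71.0, 223 and 126 in the control arrays. *Lamc1* had 253, 95.3 and 129.5 in the *Otx2* CKO arrays, against 81.7, 142 and 86.5 in the control arrays. Their changes were 0.29 (95% interval −0.45 to 1.02) and 0.49 (−0.18 to 1.15), and arrays of the groups overlapped. A further probe set of *Lamb1* gave a larger change of 0.75 and was not called either (adjusted p = 0.0822 from limma).

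*Lama5*, the alpha chain of many adult basement membranes, averaged 70.8 ± 24.2 in P12 *Otx2* CKO and 45.3 ± 12.1 in P12 control retina (SD, n = 3 each) and was not called (adjusted p = 0.177). The other laminins stayed under 50. *Lama4*, an alpha chain of vessel walls, had 21.8, 15.9 and 31.7 in the *Otx2* CKO arrays, against 45.9, 56.6 and 44.3 in the control arrays, and was the 1 laminin with all *Otx2* CKO arrays lower. *Lama2* was in the opposite order, with 53.7, 37.3 and 36.3 in the *Otx2* CKO arrays against 17.2, 19.2 and 21.6 in the control arrays. *Lamb2* had 48.8, 50.2 and 40.1 in the *Otx2* CKO arrays against 23.5, 38.4 and 17.4 in the control arrays. These 3 genes were not in the main test. When no signal limit was set, *Lama2* was called higher (0.71, adjusted p = 0.0339) and *Lama4* lower (−0.75, adjusted p = 0.0317).

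Of the chains of types II, IX and XI collagen, *Col2a1*, *Col9a1* and *Col9a3* were called higher in P12 *Otx2* CKO retina. *Col2a1*, the fibrillar chain of cartilage and vitreous, had a signal of 1242, 1184 and 959 in the P12 *Otx2* CKO arrays, against 297, 635 and 314 in the P12 control arrays. The groups did not overlap and the change was 1.48 (SE 0.28, adjusted p = 0.00356 from limma), or 1.17 after scaling. *Col9a1*, a chain of the FACIT collagen that coats type II fibrils, had 3308.5, 2741 and 2628 in the *Otx2* CKO arrays, against 1425, 2054 and 1711 in the control arrays. Its change was 0.74 (SE 0.22, adjusted p = 0.0355). After trimmed mean scaling it was 0.43 and not called (adjusted p = 0.248), nor was it in either quantile normalization. The call also went without any 1 P12 *Otx2* CKO array, replicate 1 or 3 of P12 control, or replicate 1 of either P1 group (adjusted p of at most 0.103). *Col9a3* had 205, 223 and 184 in the *Otx2* CKO arrays, against 57.4, 114 and 94.4 in the control arrays. The change was 1.11 (SE 0.23, adjusted p = 0.00581), or 0.83 after scaling, and the call was lost in both quantile normalizations (adjusted p = 0.0642 and 0.080).

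*Col9a2*, the remaining type IX chain, was dim but in the same order, with 54.6, 37.8 and 35.7 in the P12 *Otx2* CKO arrays, against 2.5, 16 and 5.8 in the P12 control arrays. It was called higher only when no signal limit was set (1.31, adjusted p = 0.00422). *Col11a1* and *Col11a2*, chains of the type XI collagen within type II fibrils, were not called, with changes of 0.47 and 0.38 and overlapping arrays.

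Of the other fibrillar chains, *Col5a2* was called higher and *Col5a3* lower, both chains of type V collagen. *Col5a2* had a signal of 58.1, 75.5 and 56.7 in the P12 *Otx2* CKO arrays, against 33.7, 38.5 and 29.0 in the P12 control arrays. The change was 0.67 (SE 0.19, adjusted p = 0.0294 from limma), but 0.45 and not called after scaling (adjusted p = 0.160), nor was it called in either quantile normalization (adjusted p = 0.291 and 0.353). It was also not called without replicate 2 of P12 *Otx2* CKO, replicate 3 of P12 control or P1 *Otx2* CKO, or any 1 P1 control array (adjusted p of at most 0.103). *Col5a3* had 39.8, 11.6 and 13.2 in the *Otx2* CKO arrays, against 71.3, 54.2 and 40.4 in the control arrays. The brightest *Otx2* CKO array and the dimmest control array nearly met, and the change was −0.98 (SE 0.28, adjusted p = 0.0274), or −1.22 after scaling. The call was lost when either of the other *Otx2* CKO arrays, replicate 2 or 3, was left out (adjusted p of at most 0.0848), and without replicate 1 of control the gene fell under the limit.

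*Col1a2*, the second chain of type I collagen, averaged 63.1 ± 33.5 in P12 *Otx2* CKO and 85.9 ± 19.5 in P12 control retina, a change of −0.42 that was not called. After trimmed mean scaling it was called lower (−0.70, adjusted p = 0.0263), and so it was without replicate 1 of P12 *Otx2* CKO (adjusted p = 0.0312). *Col5a1* and *Col27a1* were not called, with changes of 0.36 and −0.36.

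*Col12a1*, a FACIT collagen of fibrous connective tissue, had the largest change of the 30 tested members. Its signal was 479, 79.4 and 104 in the P12 *Otx2* CKO arrays, against 23.4, 5.7 and 1.7 in the P12 control arrays. All *Otx2* CKO arrays were above all control arrays, and all control arrays were far under the limit of 50. The change was 2.85 (SE 0.49, adjusted p = 0.0019 from limma), or 2.63 after scaling. Replicate 1 of *Otx2* CKO held 72.4% of the summed signal of the group, and the gene was still called without it. *Col16a1* and *Col20a1*, other FACIT collagens, averaged 51.0 and 37.2 in P12 *Otx2* CKO, against 38.9 and 52.5 in P12 control retina, and were not called. With the replicate block *Col20a1* was called lower (−0.54, adjusted p = 0.0274), and so it was without replicate 1 of *Otx2* CKO (−1.05, adjusted p = 0.0055).

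The transmembrane collagens held 1 gene called higher and 1 called lower. *Col23a1* had a signal of 685, 434 and 419 in the P12 *Otx2* CKO arrays, against 172, 219 and 142 in the P12 control arrays. The change was 1.43 (SE 0.24, adjusted p = 0.00132 from limma), or 1.13 after scaling. *Col17a1*, a collagen of hemidesmosomes, the junctions that fix epithelia to basement membranes, had 11.2, 9.0 and 1.5 in the *Otx2* CKO arrays, against 70.5, 53.7 and 40.0 in the control arrays. The change was −1.61 (SE 0.25, adjusted p = 0.000882), or −1.80 after scaling, and control signals were close to the limit. Without replicate 1 of control the mean fell under the limit and the gene was not tested. *Col13a1*, found at adhesion sites, had 83.9, 39.4 and 32.2 in the *Otx2* CKO arrays, against 32.1, 20.1 and 13.4 in the control arrays. It missed the threshold (0.80, adjusted p = 0.0657) and was called higher with the replicate block (adjusted p = 0.000724), with quantile normalization within an age (adjusted p = 0.0487), and without replicate 3 of *Otx2* CKO or replicate 1 of control. *Col25a1*, a neuronal collagen, averaged 77.6 ± 43.1 in *Otx2* CKO and 49.1 ± 26.6 in control retina. It was not called (0.51, adjusted p = 0.317) except with the block (adjusted p = 0.0409).

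*Col18a1*, a basement membrane collagen whose end fragment is endostatin, had a signal of 259, 178 and 198 in the P12 *Otx2* CKO arrays, against 90.7, 103 and 109.5 in the P12 control arrays. The change was 0.95 (SE 0.22, adjusted p = 0.0125 from limma), or 0.66 after scaling, and only quantile normalization of the 12 arrays lost the call among the scalings. *Col8a1*, a network-forming collagen of Descemet's membrane and vessels, had 101.0, 92.1 and 63.8 in the *Otx2* CKO arrays, against 36.3, 35.1 and 47.2 in the control arrays. Its change was 0.86 (SE 0.22, adjusted p = 0.0163), and 0.61 after scaling, where it missed the threshold (adjusted p = 0.0512), as it did in the quantile normalizations within an age and of the 12 arrays (adjusted p = 0.0953 and 0.207). For both genes the groups did not overlap.

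*Col6a1*, a chain of the beaded type VI filaments, had 494, 184 and 233 in the P12 *Otx2* CKO arrays, against 183, 138 and 137 in the P12 control arrays. It was not called (0.82, adjusted p = 0.0763), although the groups did not overlap, and it was called higher with the replicate block (adjusted p = 0.00478). Without replicate 1 of *Otx2* CKO its change was 0.42, and without replicate 2 it was called higher (adjusted p = 0.0237). Its partner *Col6a2* averaged 114 ± 61.0 in P12 *Otx2* CKO and 86.9 ± 31.5 in P12 control retina and was not called (0.28, turning to 0 or below under the scalings). The brightest probe set of *Col6a2*, used here, is of a kind whose probes may also match other transcripts. A further probe set of *Col6a2* gave a larger change of 0.62 (SE 0.22). It was not called either (adjusted p = 0.0739 from limma). *Col7a1*, of anchoring fibrils, averaged 44.0 ± 24.5 and 57.8 ± 22.9 in P12 *Otx2* CKO and P12 control retina and was not called.

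**Figure D2:**
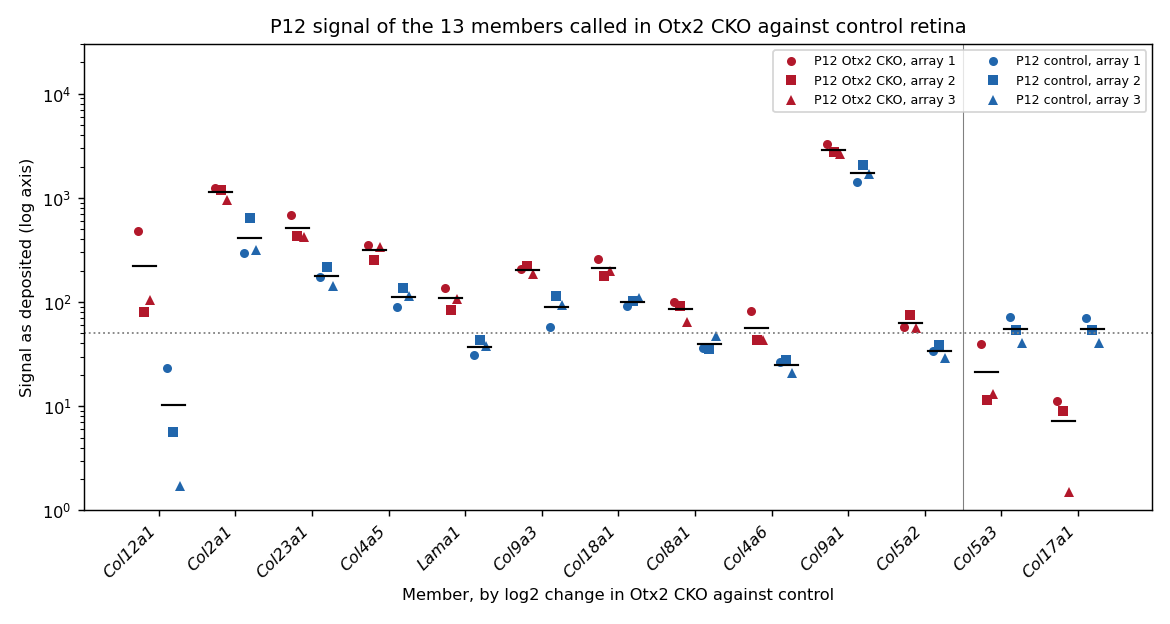
Signal as deposited (log axis) of the 13 members called at P12, with *Otx2* CKO arrays in red to the left and control arrays in blue to the right of each gene, replicates by symbol, and group means as black lines. The dotted line is the limit of 50, and the members right of the vertical line were lower. In each of the 13 genes the 3 *Otx2* CKO arrays lie on 1 side of the 3 control arrays, and replicate 1 of *Otx2* CKO (479) stands far above replicates 2 and 3 for *Col12a1*.

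Other probe sets of the same genes were tested as well. Of 45 member probe sets tested at P12, 20 were called higher and 2 lower, against 14.1% and 4.54% of all probe sets. The called members had 9 further tested probe sets, and 8 of these had the same call: 2 each for *Col12a1* and *Col23a1*, and 1 each for *Col4a5*, *Col9a1*, *Col9a3* and *Col18a1*. The exception was the further probe set of *Col8a1* (0.61, adjusted p = 0.080). The weaker probe set of *Col11a1* was called higher (1.07, adjusted p = 0.0438), unlike the brightest one. The further probe set of *Col4a1* gave −0.35, the same as the brightest.

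A few group means rested on 1 array, meaning that the lower 2 arrays averaged under 50% of a group mean of at least 50. This held for 3 of the 26 members at the limit in P12 *Otx2* CKO retina, *Col12a1*, *Col27a1* and *Col11a2*, and for 0 of the 18 in P12 control, 0 of 4 in P1 *Otx2* CKO and 0 of 4 in P1 control retina. *Col27a1* had 151, 36.3 and 37.4 in the P12 *Otx2* CKO arrays, against 163, 51.8 and 65.6 in the P12 control arrays. *Col11a2* had 111, 33.0 and 22.2 in the *Otx2* CKO arrays, against 46.9, 35.6 and 17.3 in the control arrays. In each case the bright array was replicate 1, which is also the brightest array overall. Shares of the group sum in that array were 72.4%, 67.2% and 66.8%. After scaling all arrays to 1 trimmed mean, no group mean of at least 50 rested on 1 array.

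**Figure D3:**
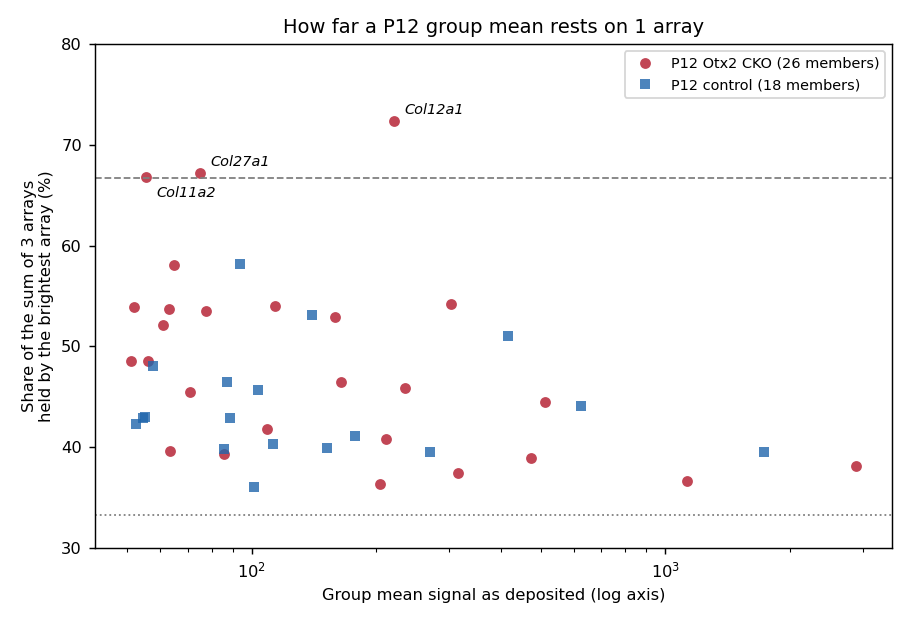
Share (%) of the summed signal of the 3 arrays that the brightest array held, against the group mean as deposited (log axis), for the 26 members with a P12 *Otx2* CKO mean of at least 50 (circles) and the 18 with such a P12 control mean (squares). The dotted line is an equal share and the dashed line the bound above which the lower arrays average under 50% of the group mean. *Col12a1* (72.4%) lies well above the bound, *Col27a1* (67.2%) and *Col11a2* (66.8%) just above it.

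At P1 no member was called between the genotypes. *Otx2* itself, the deleted gene, was not called in that fit either (−1.23, adjusted p = 0.207 from limma). The P1 test can thus miss a change that is there. Only *Col2a1*, *Col4a1*, *Col6a1* and *Col9a1* could be tested, and 0 of the 4 were called in limma, 0 also at an unadjusted p under 0.05. Over all 8384 probe sets tested at P1, 0.0% were called higher and 0.179% lower. *Col9a1* had a signal of 451, 516 and 357 in the P1 *Otx2* CKO arrays, against 461, 622 and 409.8 in the P1 control arrays. *Col2a1* had 237, 186 and 176 in the *Otx2* CKO arrays, against 249, 171 and 188 in the control arrays. The changes were −0.16 for *Col9a1* (95% interval −0.65 to 0.33), −0.01 for *Col2a1* (−0.63 to 0.60), −0.10 for *Col4a1* (−0.69 to 0.48) and 0.10 for *Col6a1* (−0.55 to 0.75). Arrays of the groups overlapped for all 4. Of all 52 members, 0 had the 3 *Otx2* CKO arrays above the 3 control arrays and 1 had them below, against 2.11% and 10.0% of all probe sets. That gene was *Col23a1*, with 28.4, 30.7 and 27.9 in the *Otx2* CKO arrays, against 40.7, 42.4 and 33.4 in the control arrays, all under the limit.

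The test of the difference between the 2 genotype effects, P12 minus P1, called 4 of the 30 members higher and 1 lower, against 3.08% and 1.79% of all probe sets. A probe set was tested here if any 1 of the 4 groups averaged at least 50, and none of the called members did so at P1. *Col12a1* and *Lama1* passed only through P12 *Otx2* CKO and *Col17a1* only through P12 control, a route that favours a difference. The offset also shrinks the P1 effect of such dim genes. *Col12a1* differed by 2.80 (SE 0.70, adjusted p = 0.0399 from limma), *Col23a1* by 1.71 (SE 0.33, adjusted p = 0.0118), *Col4a5* by 1.503 (SE 0.36, adjusted p = 0.035) and *Lama1* by 1.15 (SE 0.29, adjusted p = 0.0437). *Col17a1* differed by −1.49 (SE 0.35, adjusted p = 0.0323). *Col2a1*, with 1.496, just missed the threshold (adjusted p = 0.0522). *Col12a1* and *Col23a1* were also called under the 3 scalings, *Col17a1* under 2 of them, and *Col4a5* and *Lama1* under none. Leaving out 1 array at a time, *Col23a1* was called in all 12 fits, whereas *Col12a1*, *Col17a1*, *Col4a5* and *Lama1* lost the call in 7 of 12, 7 of 11, 8 of 12 and 9 of 12 fits, with adjusted p of at most 0.129, and without replicate 1 of P12 control *Col17a1* fell under the limit. Any 1 of replicates 2 and 3 of P1 *Otx2* CKO and replicates 1 and 3 of P1 control was enough for each of these 4 genes. The other P1 arrays were so for all but *Col4a5*, as were replicate 3 of P12 *Otx2* CKO for all but *Col12a1*, replicate 3 of P12 control for all but *Col17a1*, replicate 1 of P12 control for *Col4a5* and *Lama1*, and replicate 1 of P12 *Otx2* CKO for *Col4a5*. With the replicate block, 11 members were called higher and 2 lower, against 28.9% and 3.99% of all probe sets. At P1 the arrays of *Col12a1* ran from 0.20 to 1.10 in *Otx2* CKO and 0.10 to 0.30 in control retina. Those of *Col17a1* ran from 0.10 to 2.9 in *Otx2* CKO and 0.30 to 7.5 in control retina. Both genes were thus far under the limit at P1, where only a bound on their level can be had.

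The ages could be compared only after scaling, since P12 arrays were the brighter by deposit. With every array at 1 trimmed mean, 14 members were tested in each genotype, and those comparisons share arrays with the genotype comparisons above. P12 control was set against P1 control retina first. There 3 members were called higher and 4 lower, against 19.2% and 21.3% of all probe sets. The chains *Col4a1* (336 ± 79.5 at P12 and 133 ± 49.8 at P1, SD, n = 3 each) and *Col4a2* (146 ± 18.7 and 68.0 ± 18.5) were higher at P12, by 1.26 and 0.96 on the log2 scale (adjusted p = 0.00135 and 0.0016 from limma). *Col27a1*, a fibrillar chain of cartilage, was also higher (1.64, adjusted p = 0.00232), with 52.1 ± 36.2 at P12 and 4.18 ± 3.35 at P1. Its P12 control arrays were at 93.4, 25.8 and 37.2, and without the first of these, or any 1 P12 *Otx2* CKO array, the gene fell under the limit and was not tested. *Lama1* averaged 20.3 ± 2.24 at P12 and 60.7 ± 3.83 at P1, and *Col5a2* 18.3 ± 1.60 and 64.6 ± 5.75. Both were lower at P12, by −1.08 and −1.23 (adjusted p = 0.000337 and 0.000227). *Col2a1* (−0.78, adjusted p = 0.026) and *Col9a3* (−0.60, adjusted p = 0.0402) were lower too, but *Col2a1* was not called without replicate 1 or 3 of P12 control or replicate 1 of P1 control (adjusted p of at most 0.108), nor *Col9a3* without replicate 3 of P12 *Otx2* CKO, replicate 1 or 3 of P12 control or P1 *Otx2* CKO, or any 1 P1 control array (at most 0.127). These 4 falls exist only relative to the scaled arrays, as the deposited signals gave changes of 0.15, 0.91 and 0.81 for *Lama1*, *Col2a1* and *Col9a3*, and that of *Col5a2* was not called.

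In *Otx2* CKO retina 2 members were higher at P12 than at P1 and 2 lower, against 14.5% and 14.9% of all probe sets. *Col23a1* averaged 218 ± 5.96 at P12 and 65.0 ± 11.2 at P1 (1.54, adjusted p = 4.75e-05 from limma), and *Col12a1* 82.4 ± 62.6 and 1.73 ± 1.19 (2.30, adjusted p = 0.000474). The P12 arrays of *Col12a1* were at 154, 40.6 and 52.2, and without the first of these it fell under the limit and was not tested. Its change was 4.79 with an offset of 1 in place of 16 and 1.26 with an offset of 50. *Lama1* averaged 46.8 ± 5.94 at P12 and 76.6 ± 17.4 at P1 (−0.55, adjusted p = 0.0289), and *Col5a2* 28.6 ± 9.95 and 71.2 ± 8.20 (−0.99, adjusted p = 0.00176). For both of these the deposited signals had the opposite order. The call of *Lama1* was lost without replicate 1 or 2 of P12 *Otx2* CKO or replicate 2 of P1 *Otx2* CKO (adjusted p of at most 0.120). *Col4a1* and *Col4a2* were not called between the ages here (0.53 and 0.42), nor were *Col2a1* and *Col9a3* (0.15 and 0.01). In control retina *Col23a1* averaged 96.2 at P12 and 73.7 at P1 and was not called (0.32).

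**Figure D4:**
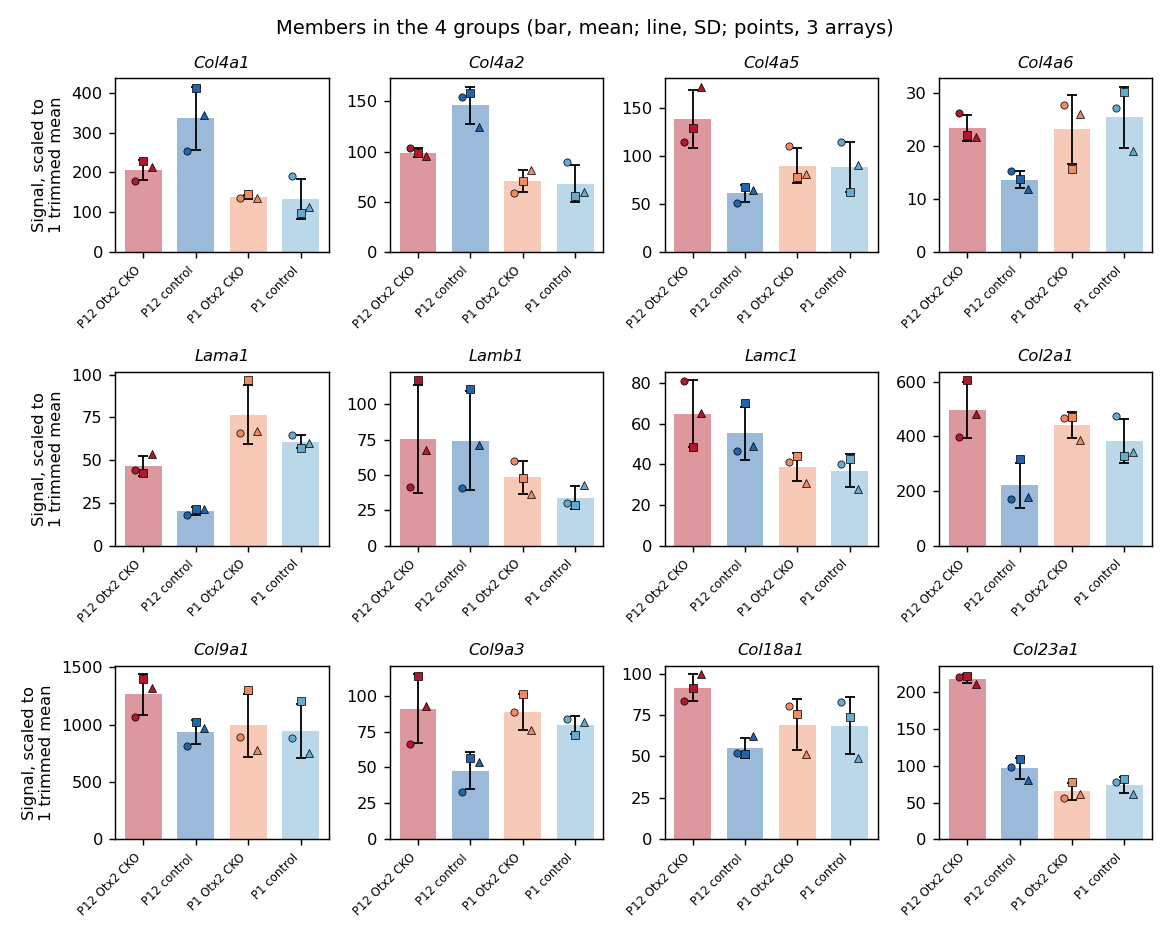
Signal scaled to 1 common trimmed mean for 12 members in, from left to right, P12 *Otx2* CKO, P12 control, P1 *Otx2* CKO and P1 control retina. Bars are means, lines SD, points the 3 arrays. *Col4a1* is highest in P12 control retina (336), *Col23a1* in P12 *Otx2* CKO (218), and *Lama1* is lowest in P12 control (20.3).

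Genes that build, bind and cut these proteins were counted in 4 lists. Of 17 measured basement membrane partners 14 were tested at P12, with 6 called higher, 0 lower and a median log2 change of 0.66, against 14.1% higher and 4.54% lower of all probe sets. *Pxdn*, the peroxidase that cross-links type IV collagen, averaged 605 in P12 *Otx2* CKO and 131 in P12 control retina (2.04, adjusted p = 0.000746 from limma). *Ntn4*, a netrin that binds laminin, averaged 325 in P12 *Otx2* CKO and 75.5 in P12 control retina (1.91, adjusted p = 6.62e-05). *Frem1* (1.74) and *Fbln1* (1.01) were higher too.

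Of 20 receptors of collagen and laminin 11 were tested, with 5 higher, 0 lower and a median of 0.70. *Ddr1*, a tyrosine kinase that binds collagen, averaged 2970 in P12 *Otx2* CKO and 1220 in P12 control retina (1.502, adjusted p = 0.0266 from limma), and was not called after trimmed mean scaling or without replicate 1 of P12 *Otx2* CKO. *Sdc3* (1.39), *Adgrg1* (1.20) and *Lair1* (0.75), an inhibitory collagen receptor of immune cells, were higher as well, but *Lair1* not after that scaling or without that array, where *Sdc3* and *Adgrg1* were. Of 28 genes of collagen synthesis and processing 19 were tested, with 5 higher, 1 lower and a median of 0.45. *Adamts3*, a procollagen N-proteinase, averaged 18.7 in P12 *Otx2* CKO and 127 in P12 control retina (−2.06, adjusted p = 4.96e-05). *Fkbp14*, a folding helper of the endoplasmic reticulum, averaged 191 in P12 *Otx2* CKO and 87.6 in P12 control retina (adjusted p = 0.00331), and *Colgalt2* (0.85) and *P3h4* (0.82) were also higher. Of 16 metalloproteinases and inhibitors 8 were tested, with 5 higher, 0 lower and a median of 0.98, among them *Timp2* (1.18), *Mmp24* (1.11), *Mmp16* (1.02) and *Reck* (1.02). These medians stand beside 0.39 for all probe sets. After trimmed mean scaling, where it was 0.10, the lists held 5, 2, 2 and 5 genes called higher and 0, 2, 1 and 0 called lower, in the order given, against 8.4% and 8.0% of all probe sets. At P1 limma called 0 genes of the 4 lists, with 3, 4, 5 and 3 tested.

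Markers of other cell types moved at P12 as well, and their part in the results was not tested. Over all probe sets tested, 14.1% were called higher and 4.54% lower. Of 11 markers of retina 6 were higher, with a median log2 change of 1.24. The sums below are of signals as deposited. All 9 tested microglia and macrophage markers (of 11 measured) were higher in *Otx2* CKO retina, and their summed signal was 3324 to 4354 in *Otx2* CKO arrays and 585.5 to 1173 in control arrays. Of 12 Muller glia markers 6 were higher, with sums of 21880 to 27987 in *Otx2* CKO and 10436 to 19228 in control arrays. Of 3 astrocyte markers 2 were higher, *Gfap* and *S100b*, with sums of 355 to 497 in *Otx2* CKO and 118 to 223 in control arrays. Of 12 pigment epithelium markers 8 were tested and 3 were higher (*Dct*, *Tyrp1*, *Tyr*), with sums of 2602 to 4760 in *Otx2* CKO and 960 to 2989 in control arrays. After trimmed mean scaling within an age, 9 microglia and macrophage, 3 Muller glia, 2 astrocyte and 2 pigment epithelium markers were higher. So were 4 markers of retina, against 8.4% of all probe sets higher and 8.0% lower. Of 14 endothelium markers 9 were tested, with *Kdr* higher and *Esam* lower, and their sums overlapped, at 1560.5 to 2726 in *Otx2* CKO and 1301 to 1944 in control arrays. After trimmed mean scaling within an age *Kdr* was higher and *Pecam1*, *Cldn5*, *Esam* and *Eng* lower, with a median of −0.51 over the 9, and quantile normalization within an age gave 1 higher and 3 lower. Of 12 markers of pericytes and smooth muscle 5 were tested and limma called 0, with overlapping sums of 761 to 1685 in *Otx2* CKO and 944 to 1506 in control arrays. Of 16 markers of sclera and connective tissue only *Pdgfra* and *Prelp* reached 50 in either group, and both were higher, with list sums of 1093 to 1478 in *Otx2* CKO and 467.5 to 523 in control arrays. The marker genes named here were chosen after their values were seen. None of 8 lens markers reached 50 in any group, and 1 of 6 skeletal muscle markers did and was not called.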

How the data were processed

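RNA of mouse retina was hybridised to 1-colour Affymetrix mouse arrays, 3 per group. The authors took signal intensity values per probe set from the scanner software and deposited 1 table of them for the 12 arrays, on a linear scale, and the scaling target is not given in the sources used here. Probe sets were named from the platform annotation, and 64 control probe sets were left out. log2(signal + 16) was fitted in limma 3.58.1 (R 4.3.3, lmFit and eBayes with a trend) with 4 groups and all 12 arrays, and p values were Benjamini-Hochberg adjusted over all probe sets with a group mean of at least 50 in the comparison. The offset shrinks changes of dim genes. The number of arrays limits the precision. For the age comparisons each array was first scaled to 1 common 2% trimmed mean. Deviations of same-numbered arrays correlated at 0.823, 0.881 and 0.540 at P12 and at 0.239, 0.173 and 0.327 at P1, so the experiment numbers were taken to pair the arrays, and the blocked fit is an alternative. Values per array are given for members called in a genotype comparison or in the difference, or resting on 1 array, and for pathway lists the 4 genes with the largest change past the threshold. Members and gene lists were chosen with earlier results of these data known. Tables and figures were made in Python 3.11.15 with pandas 2.3.3 and matplotlib 3.10.9, and the fit was tested on simulated data.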

Additional observations from a re-analysis of the deposited data

Results flagged for a closer look

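For 5 members the genotype effect at P12 was called different from that at P1 in limma. The difference on the log2 scale was 2.80 for *Col12a1*, 1.71 for *Col23a1*, 1.503 for *Col4a5*, 1.15 for *Lama1* and −1.49 for *Col17a1*. Signals of *Col12a1* and *Col17a1* were under 10 in every P1 array. Leaving out 1 array at a time kept the call of *Col23a1* in all 12 fits (adjusted p of at most 0.0449). The call of *Col12a1* was lost in 7 of 12 fits (adjusted p up to 0.103). That of *Col17a1* was lost in 7 of 11, of *Col4a5* in 8 of 12 and of *Lama1* in 9 of 12. *Col4a5* and *Lama1* were also called under 0 of the 3 scalings.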

How the results depend on the processing

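At P12 the count of members called higher was 11, and it was 1 with each age fitted alone, 5 with quantile normalization of the 12 arrays and 7 with quantile normalization within an age. Counted over the 45 tested probe sets of the members in place of genes, 20 were called higher. The count called lower was 2, and it was 8 with trimmed mean scaling and the replicate block (an alternative chosen after seeing the data), 1 with an offset of 1, and 0 with each age alone, with a limit of 100 and with a limit of 50 on the mean of 12 arrays. Leaving out 1 array gave 8 to 11 higher and 1 to 4 lower. *Col4a6*, *Col9a1* and *Col5a2* lost the call in 8 of 11, 7 of 12 and 6 of 12 such fits, *Col5a3* in 2 of 11, and the other 9 called members in none, although *Col17a1* could be tested in 11 of the 12 only.

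For the difference of genotype effects the counts were 4 higher and 1 lower. The replicate block gave 11 and 2, trimmed mean scaling 2 and 2, scaling with the block 7 and 6, quantile normalization within an age 2 and 2, quantile normalization of the 12 arrays 2 higher, no signal limit 1 higher, and an offset of 1 gave 1 and 0. The lower count was 0 with a limit of 100 and with the limit on the mean of 12 arrays. Leaving out 1 array gave 1 to 8 higher and 0 to 2 lower. At P1 no member was called under any of these settings, the replicate block included.

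Between ages, control retina had 3 members higher and 4 lower. As deposited it was 12 and 0, where 77.7% of all probe sets were called higher, without a signal limit 14 higher, and without 1 array 2 to 4 higher and 2 to 5 lower. *Otx2* CKO retina had 2 and 2. As deposited it was 14 and 0, where 94.2% of all probe sets were called higher, without a signal limit 8 and 1, with quantile normalization 1 lower, and without 1 array 1 to 3 higher and 1 to 2 lower. Group means resting on 1 array numbered 3, and 1 with a limit of 100 and 0 after quantile normalization.

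Some changes turned in sign. At P12 *Col6a2* was at −0.0528 with quantiles over 12 arrays, −0.0554 with quantiles within an age and −0.003472 with the trimmed mean, with or without the replicate block. Without 1 array at a time *Col6a2* ran from −0.0808 to 0.51, *Col27a1* from −0.92 to 0.0602 and *Lamb1* from −0.07465 to 0.65. At P1 *Col2a1* was at 0.198 and 0.203 with the quantile normalizations and 0.201 with the trimmed mean, and ran from −0.132 to 0.136 without 1 array. *Col4a1* was at 0.1015, 0.0796 and 0.0804 in the same order and ran from −0.277 to 0.126, and *Col9a1* was at 0.0418, 0.04496 and 0.0625 and ran from −0.286 to 0.00639. The trimmed mean with the block gave the same 3 values as without it. Between the ages, the deposited signals gave 0.91 for *Col2a1*, 0.81 for *Col9a3* and 0.15 for *Lama1* in control retina, and 0.72 for *Col5a2* and 1.30 for *Lama1* in *Otx2* CKO retina. In *Otx2* CKO retina *Col9a3* was at −0.0224 with quantiles and ran from −0.137 to 0.189 without 1 array, and *Col2a1* from −0.00163 to 0.287. The cause of these shifts was not tested. In all, 22 of 52 members stayed under 50 as deposited, where signal limits what can be seen.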
